A study of Mus musculus with 12 samples.

Results

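The mitochondrial genome transcripts of mouse retinal explants were examined as the rows of the gene table whose symbol starts with mt-. The rule took 37 of 53707 genes: 13 coding genes, 2 rRNA genes and 22 tRNA genes. All explants came from wild-type C57BL/6J mice at P28 and were retinas freed of the retinal pigment epithelium. They were kept for 48 h in Neurobasal-A medium with B27 and N2 supplements that held either 5 mM or 25 mM glucose. The paper describes a closing incubation in Krebs' Ringers medium. Whether retinas for RNA-seq, which were processed immediately, had this step is not clear from it. Each group had 3 biological replicates, and each of these was sequenced as 2 technical replicates, a (labelled batch 1) and b (batch 2), which makes 12 RNA libraries. The sources do not say that the biological replicates were separate animals, so p-values measure the spread between these samples. The retina is a mixture of cell types, and in such bulk RNA fewer cells of a type and less RNA per cell cannot be told apart.

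Mitochondrial DNA is a small circle present in many copies per cell. Both of its strands are transcribed into long precursors, from which tRNAs are cut out so that the mRNAs and rRNAs between them are released. The mRNAs encode core subunits of respiratory chain complexes I, III and IV and of ATP synthase, whose other subunits are encoded in the nucleus. Photoreceptors, the most numerous cells of the mouse retina, pack mitochondria densely into their inner segments.

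Of the 37 genes, 28 lay on the plus strand and 9 on the minus strand of chromosome M (GRCm38, GENCODE M21). The minus-strand genes were mt-Nd6 and 8 tRNA genes. The genes are so close that neighbours share bases, and 3 of these shared stretches bear on how counts were divided. mt-Atp8 and mt-Atp6, both subunits of ATP synthase, share 43 bases of the same strand, and mt-Nd4l and mt-Nd4, both of complex I, share 7. mt-Nd5 and mt-Nd6 share 14 bases on opposite strands. The GENCODE transcripts read across these places as follows, on the plus strand from chrM:7897-7999, chrM:10137-10203 and chrM:13522-13595, with the shared bases in capitals.
mt-Atp8 and mt-Atp6: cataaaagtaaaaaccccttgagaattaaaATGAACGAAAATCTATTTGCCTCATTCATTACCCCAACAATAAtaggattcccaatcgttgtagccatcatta
mt-Nd4l and mt-Nd4: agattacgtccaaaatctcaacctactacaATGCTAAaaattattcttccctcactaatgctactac
mt-Nd5 and mt-Nd6: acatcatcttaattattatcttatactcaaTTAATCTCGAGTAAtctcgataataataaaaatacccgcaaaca

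A further place where counts could be divided lies outside the mitochondrial genome. Chromosome 1 holds an insertion of mitochondrial DNA in which 7 pseudogenes are annotated, each a copy of a coding gene or a stretch of one. Gm29216 (chr1:24615706-24616197, minus strand) matches positions 1054 to 1545 of mt-Co1 with 6 differences. Counted from 1 at the start of mt-Co1, with the mitochondrial base first, these are T1056A, C1057T, A1059G, A1060G, C1062A and A1066T. The last 479 bases of the match are identical, so a read within them could not be told apart by sequence. The first 120 bases of the match are shown for both, chrM:6381-6500 on the plus strand and chr1:24616078-24616197 on the minus strand, with the differences in capitals.
mt-Co1: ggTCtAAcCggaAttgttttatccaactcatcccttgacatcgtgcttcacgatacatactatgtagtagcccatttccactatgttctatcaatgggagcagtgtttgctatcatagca
Gm29216: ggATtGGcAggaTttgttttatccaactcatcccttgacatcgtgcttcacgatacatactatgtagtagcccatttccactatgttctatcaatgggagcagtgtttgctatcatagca

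The mitochondrial genes took between 5.91% and 15.4% of the estimated counts of a library, at library totals of 14815285 to 36692484 counts. After the technical replicates were summed, the shares at 5 mM glucose were 10.1%, 6.10% and 7.72% in replicates 1, 2 and 3. At 25 mM they were 8.96%, 12.3% and 7.98%. The groups overlapped, since 5 mM replicate 1 lay above 2 of the 3 replicates at 25 mM. The means were 7.98% ± 2.02 (SD, n = 3) and 9.73% ± 2.24 (SD, n = 3), a difference of 1.75 percentage points that is smaller than either SD. The difference depended on single replicates and libraries. It was 2.82 percentage points without 5 mM replicate 1, where the groups no longer overlapped (6.91% against 9.73%), and 0.49 without 25 mM replicate 2. Without 5 mM replicate 2 it was 0.81, without 25 mM replicate 3 2.62, and without library 25 mM 2a 1.07. No test was run on shares, as an exact two-sided permutation test of 3 against 3 cannot give a p below 0.1.

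Technical replicates of the same biological replicate also differed in this share. Library a held the larger mitochondrial share in 5 of 6 pairs, and the ratio of a to b ran from 0.99 in 25 mM replicate 3 to 1.56 in 5 mM replicate 1. The library 25 mM 2a had the highest share, 15.4%, and also the smallest total of all 12 libraries. Its partner 2b held 10.2%. Within batch 1 the share was 8.75% ± 2.79 at 5 mM and 10.9% ± 3.99 at 25 mM (SD, n = 3 each), and the groups overlapped. Within batch 2 it was 6.90% ± 0.87 and 8.98% ± 1.14 (SD, n = 3 each), and here all 3 libraries at 25 mM lay above all 3 at 5 mM.

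**Figure D1:**
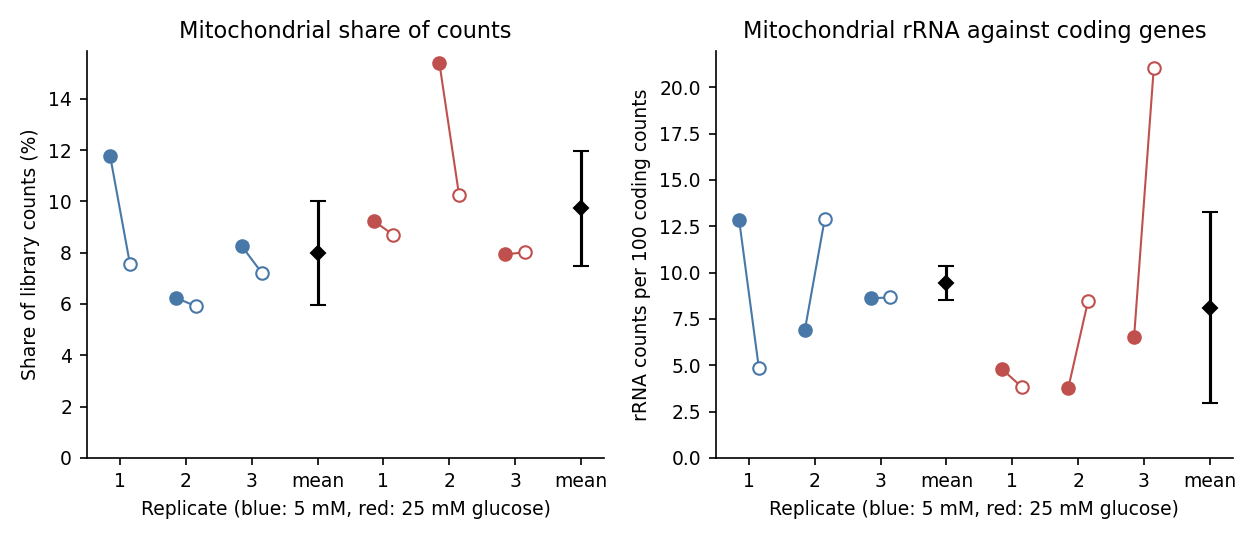
Mitochondrial share of library counts in percent (left) and mitochondrial rRNA counts per 100 coding counts (right) for each biological replicate at 5 mM (blue) and 25 mM glucose (red). Filled circles are library a and open circles library b, joined by a line, and black diamonds with bars are the mean and SD of the 3 summed replicates. The lines are longest for 5 mM replicate 1 and 25 mM replicate 2 on the left and for 25 mM replicate 3 on the right.

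Divided by complex, the shares of the mitochondrial counts overlapped between the groups in every class. Complex IV held 43.2% ± 0.61 of them at 5 mM and 42.7% ± 1.08 at 25 mM (SD, n = 3 each). Complex I held 27.4% ± 0.50 and 29.6% ± 3.30. The single complex III gene held 12.1% ± 0.11 and 12.2% ± 1.28, and ATP synthase 8.66% ± 0.47 and 8.17% ± 0.82. The rRNA genes held 8.61% ± 0.75 and 7.37% ± 4.31, and all 22 tRNA genes together about 0.013% in each group. Per kilobase, in TPM, the groups parted for complex IV, which then held 41.7% ± 0.79 at 5 mM and 40.4% ± 0.41 at 25 mM. In counts, the SD was larger at 25 mM for complexes I, III and IV, ATP synthase and rRNA.

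Within batches the shares parted in different places. In batch 1, complex I held 27.1% ± 0.84 of the mitochondrial counts at 5 mM and 30.5% ± 2.50 at 25 mM without overlap, ATP synthase 9.13% ± 0.43 and 8.07% ± 0.72, and rRNA 8.59% ± 2.53 and 4.76% ± 1.25 (SD, n = 3 each). In batch 2 none of these 3 parted. Complex IV did, with 44.4% ± 1.10 and 40.7% ± 1.97 (SD, n = 3 each), while in batch 1 its mean was the higher at 25 mM, 44.8% against 42.6%. None of the 6 classes parted in both batches.

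Per unit of length, the order of the genes was steady. TPM, the transcript level per length scaled to a fixed library total and computed here from the transcript counts and the annotated lengths, averaged 28776 for mt-Co1, the catalytic core subunit of complex IV, over the 6 replicates (SD 8405). mt-Co2 followed at 23890.3 (SD 5292), then mt-Atp6 at 19947 (SD 5196), mt-Cytb at 18429 (SD 5231) and mt-Co3 at 17908 (SD 3995). Steps between these neighbours were smaller than their SDs. mt-Co1 and mt-Co2 held ranks 1 and 2 in every replicate, in either order, and mt-Atp6, mt-Cytb and mt-Co3 ranks 3 to 5. The complex I genes mt-Nd1, mt-Nd4 and mt-Nd2 came next at 11891, 10846 and 8594 TPM. mt-Nd5, mt-Nd4l, mt-Rnr2, mt-Rnr1, mt-Atp8 and mt-Nd3 formed a lower group, from 6460 down to 3801 TPM, in which ranks crossed between replicates. Libraries from the kit used are depleted of ribosomal cDNA, a step that the paper does not describe. The ranks of mt-Rnr1 and mt-Rnr2 therefore describe what remained, not tissue levels. mt-Nd6 was last in every replicate at 372 TPM (SD 140), where mt-Co1 stood 77.3 times and mt-Nd3, the lowest coding gene of the plus strand, 10.2 times higher.

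**Figure D2:**
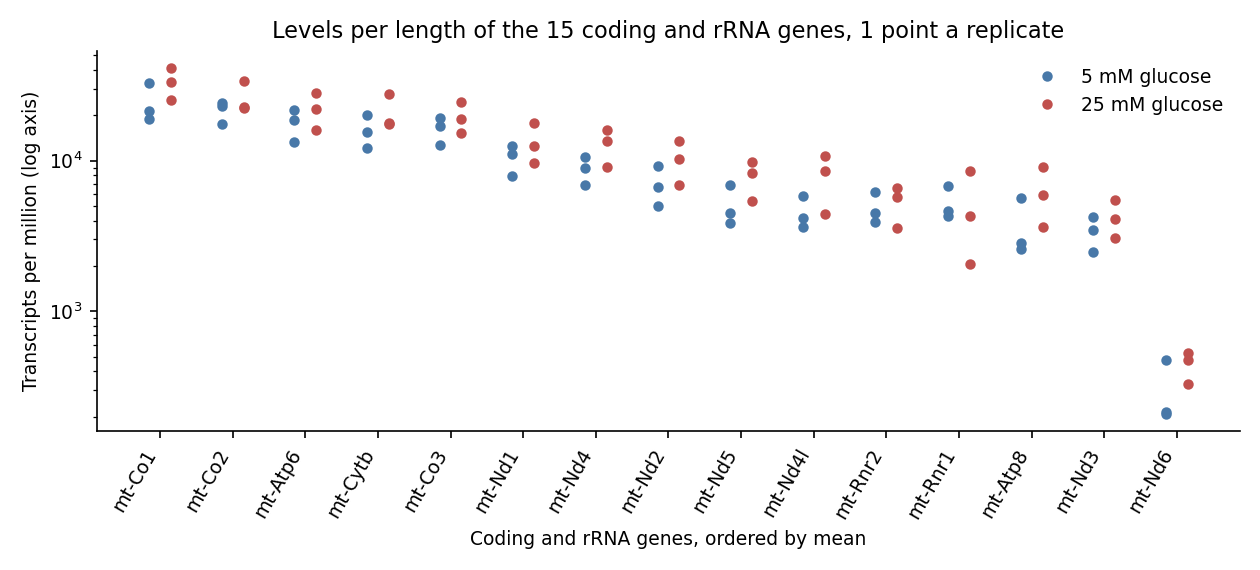
TPM (log axis), the level per length, of the 13 coding and 2 rRNA genes, ordered by their mean, with 1 point for each of the 3 replicates at 5 mM (blue) and 25 mM glucose (red). The cytochrome oxidase genes mt-Co1 and mt-Co2 lead, mt-Nd6 of the minus strand lies apart at the bottom, and the colours overlap at every gene. The rRNA genes are shown as left after depletion of ribosomal cDNA.

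The 12 coding genes of the plus strand moved together over the replicates. In CPM, which are counts scaled to a fixed library total with TMM factors, 12 of 12 were highest in 25 mM replicate 2 and 12 of 12 lowest in 5 mM replicate 2. Their coefficients of variation over the 6 replicates ran from 24.8% to 47.3% in CPM. As a share of the summed coding and rRNA CPM, the same coefficients ran from 6.10% to 24.7%, and the 3 highest belonged to mt-Nd4l, mt-Atp8 and mt-Nd5. Of the 15 coding and rRNA genes, 1 had shares that did not overlap. This was mt-Co3, which held 8.22%, 8.58% and 9.23% of this sum at 5 mM and 7.98%, 7.78% and 7.53% at 25 mM. A share over all genes was not computed on this scale. In CPM, 31.8% of all genes tested in the glucose contrast had replicates without overlap, so 1 of 15 does not stand out.

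The contrast of 25 mM with 5 mM glucose was fitted across all genes with edgeR's quasi-likelihood test on the summed technical replicates. It tested 21061 genes and called 417 of them at a Benjamini-Hochberg false discovery rate (FDR) under 0.05, or 1.98%. The filter on low counts kept 21 of the 37 mitochondrial genes, the 13 coding genes, both rRNA genes and 6 tRNA genes, and none of the 21 was called by edgeR. DESeq2 and limma-voom also called 0 of the 21, although DESeq2 called 16.6% of all genes. At an unadjusted p under 0.05 edgeR had 1 mitochondrial gene, mt-Tc, where 28.7% of all genes tested stood at that level. The replicates of the groups overlapped for 21 of 21 mitochondrial genes, although 31.8% of all genes tested had replicates without overlap. Nonetheless 19 of the 21 log2 fold changes were above 0, against 49.3% of all genes tested, with a median of 0.27 where the median of all genes was -0.01. The 12 plus-strand coding genes among them moved together over the replicates, so these signs are not independent.

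This common direction depended on single replicates and on scaling. Without 25 mM replicate 2, 11 of 21 log2 fold changes were above 0 and the median was 0.06. Without 5 mM replicate 2, 14 of 22 were above 0 with a median of 0.09, and without 5 mM replicate 3, 20 of 22 with a median of 0.25. The shift was upward without 25 mM replicate 1, with 21 of 21 above 0 and a median of 0.39, and without 25 mM replicate 3, with 20 of 22 and a median of 0.36. It was most so without 5 mM replicate 1, where 22 of 22 were above 0 with a median of 0.54. That fit had 7 mitochondrial genes at an unadjusted p under 0.05 and called 2, mt-Nd6 and mt-Tk, while it called 26.6% of all genes. The fit without 25 mM replicate 3 called 1, mt-Tk, and 2.27% of all genes. The fits with 22 genes tested include mt-Tk, which passed the filter there only through its 25 mM values. Its direction and its calls in these fits are therefore no test. When counts were scaled to the mitochondrial sum in place of the library, 13 of 21 were above 0 with a median of 0.03. With all replicates kept, or with a batch or 1 library left out, the settings tried called 0 mitochondrial genes at varied shares of all genes called. The share was 1.93% with RLE size factors, 2.18% with library totals, 1.99% with nuclear genes as the base of scaling and 2.83% with the newer edgeR method. It was 2.69% with a filter on CPM, 4.7% with the replicate number as a block and 0.833% from the transcript table. With all 12 libraries and a batch term it was 15.6%, in batch 1 alone 17.3%, and without library 5 mM 1b 8.27%. The 95% intervals of the log2 fold changes of all 13 coding genes held 0, and 8 of them also held 1, a doubling, while 0 of them held -1, a halving.

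**Figure D3:**
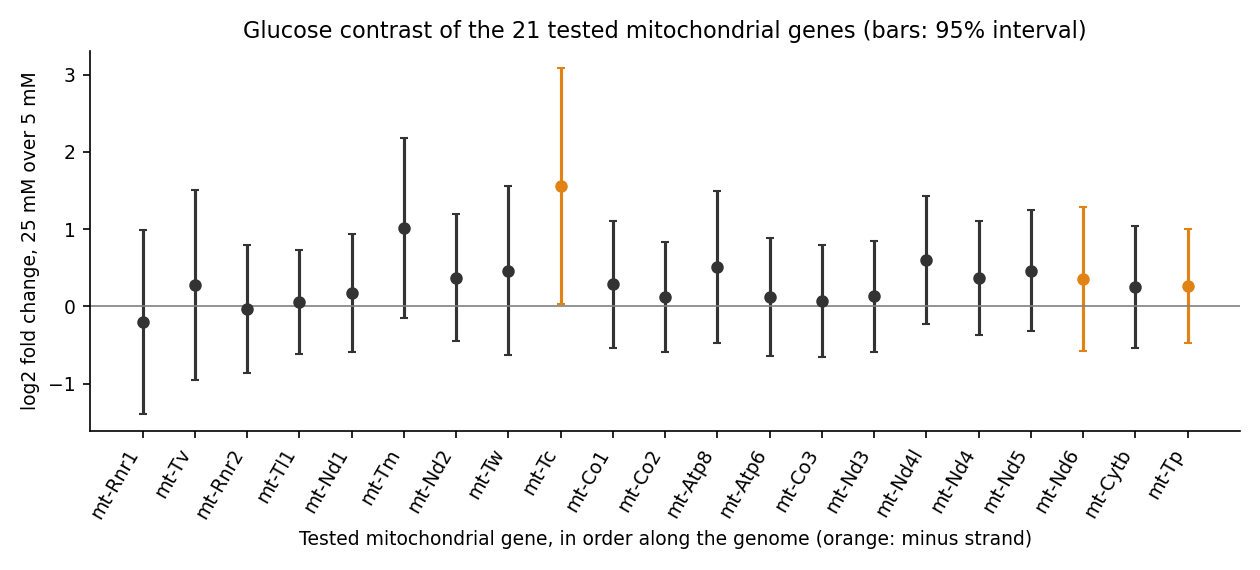
Log2 fold change of 25 mM over 5 mM glucose (points) with its 95% interval (bars) for the 21 tested mitochondrial genes in their order along the genome, black for the plus and orange for the minus strand. All intervals cover 0 except that of mt-Tc, whose lower bound is 0.03, and the points of the coding genes lie between 0.07 and 0.60.

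Complex I takes electrons from NADH, and 7 of its core membrane subunits are mitochondrial genes. All 7 had log2 fold changes above 0, from 0.13 to 0.60 with a median of 0.37, and none was called. mt-Nd4l had the largest: its CPM was 976, 523 and 686 in the 5 mM replicates and 1226, 1490 and 603 in the 25 mM replicates. Replicates 1 and 2 at 25 mM lay above every 5 mM replicate and replicate 3 within their range, and the log2 fold change was 0.60 ± 0.36 (SE, FDR 0.294). mt-Nd5 measured 6937, 3578 and 4403 CPM at 5 mM and 6894, 8885 and 4748 CPM at 25 mM, a log2 fold change of 0.46 ± 0.34 (SE, FDR 0.389). For this gene too, 5 mM replicate 1 lay above 2 of the 3 replicates at 25 mM.

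The other plus-strand genes of complex I differed less. mt-Nd2 averaged 3968 CPM ± 1440 at 5 mM and 5130.4 CPM ± 1833 at 25 mM (SD, n = 3 each), with a log2 fold change of 0.37. mt-Nd4 averaged 6630.1 CPM ± 1766 and 8554 CPM ± 2591, also 0.37. mt-Nd1 averaged 5497 CPM ± 1501 and 6218 CPM ± 2223, a log2 fold change of 0.18. The smallest difference was that of mt-Nd3, with 655 CPM ± 212 and 717 CPM ± 232 and a log2 fold change of 0.13. The SDs exceeded the difference in 3 of these 4 genes, and in mt-Nd4 the SD at 25 mM did.

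mt-Cytb, cytochrome b, is the only mitochondrial subunit of complex III, which passes electrons from ubiquinol to cytochrome c. It measured 13181, 7255 and 9408 CPM at 5 mM and 9089, 16558 and 9824 CPM at 25 mM. The lowest value was from 5 mM and the highest from 25 mM, the other values of the groups interleaved, and the log2 fold change was 0.25 ± 0.35 (SE, FDR 0.653).

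Complex IV reduces oxygen, and mt-Co1, mt-Co2 and mt-Co3 form its core. mt-Co1 was the most counted mitochondrial gene, with 28357, 14799.7 and 17674 CPM at 5 mM and 23218, 32338 and 18733 CPM at 25 mM (log2 fold change 0.29 ± 0.36 SE, FDR 0.611). mt-Co2 averaged 8146 CPM ± 1832 and 8846 CPM ± 2723 (SD, n = 3 each), a log2 fold change of 0.12. mt-Co3 had the smallest fold change of the coding genes, 0.07 ± 0.32 (SE, FDR 0.893), with 9028, 5094 and 7179 CPM at 5 mM and 6771, 9902 and 5762 CPM at 25 mM. Between the batches, mt-Co2 and mt-Co3 were lower in batch 2 by 0.42 and 0.40 on the log2 scale (unadjusted p of 0.0207 and 0.0481 in edgeR), and neither passed the FDR threshold, nor did any of the 21061 genes.

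mt-Atp6 and mt-Atp8 encode the 2 mitochondrial subunits of ATP synthase, the enzyme that makes ATP from the proton gradient. Although their coding sequences overlap, their values differed in size and spread. mt-Atp6 averaged 6723 CPM ± 1997 at 5 mM and 7321 CPM ± 2305 at 25 mM (SD, n = 3 each), a log2 fold change of 0.12 ± 0.33 (SE, FDR 0.827). mt-Atp8 measured 670.0, 256 and 324 CPM at 5 mM and 586, 862 and 333 CPM at 25 mM, a log2 fold change of 0.51 ± 0.43 (SE, FDR 0.450). Of the 9 coding genes compared between the deposited tables, mt-Atp8 also differed most between them. Its value in the gene table was 0.84 to 1.33 times its value in the transcript table, depending on the library, where for mt-Co1 the factor stayed between 0.97 and 1.01. The log2 fold change of mt-Atp8 from the transcript table was 0.49.

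The rRNA genes mt-Rnr1 and mt-Rnr2, which give the RNA of the mitochondrial ribosome, were the only tested mitochondrial genes with fold changes below 0. mt-Rnr1 measured 4203, 1955 and 2376 CPM at 5 mM and 897, 2410 and 4121 CPM at 25 mM. The group at 25 mM held both the lowest and nearly the highest value, and the log2 fold change was -0.20 ± 0.52 (SE, FDR 0.819). mt-Rnr2 measured 6156, 3072 and 3802 CPM at 5 mM and 2586, 4899 and 5261 CPM at 25 mM, a log2 fold change of -0.03 ± 0.36 (SE, FDR 0.961). Both signs turned when single replicates or a batch were left out, so no direction can be given.

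Set against the coding genes, rRNA varied more between the 25 mM than between the 5 mM replicates. These values describe the rRNA that remained after depletion of ribosomal cDNA. There were 10.4, 9.25 and 8.63 rRNA counts per 100 coding counts in the 5 mM replicates, and 4.28, 6.09 and 14.0 in the 25 mM replicates. The means were 9.43 ± 0.90 and 8.11 ± 5.15 (SD, n = 3 each). Within 1 biological replicate the ratio differed up to 3.24 times between its libraries: 25 mM replicate 3 had 6.50 in library a and 21.1 in library b. In batch 1 the ratio was lower at 25 mM without overlap (9.46 ± 3.06 against 5.01 ± 1.39), and in batch 2 its mean was higher at 25 mM (8.79 ± 4.00 against 11.1 ± 8.93, SD, n = 3 each). For mt-Rnr1 and mt-Rnr2 the difference of the glucose effect between batches had unadjusted p values of 0.162 and 0.188 (edgeR).

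The tRNA genes, 59 to 75 bases long, were close to the limit of detection. All 22 together had 3024 estimated counts in the 12 libraries, of which mt-Tl1, a leucine tRNA, held 60.1%. The filter kept 6 of them, and the tyrosine tRNA gene mt-Ty was at 0 in all 12 libraries, which allows a level of up to 0.0110 CPM over their summed counts (counting error only). The sequences of the 2 most counted genes, mt-Tl1 (chrM:2676-2750, plus strand) and the proline tRNA mt-Tp (chrM:15356-15422, minus strand), stand beside those of mt-Tc, a cysteine tRNA (chrM:5192-5257, minus strand), and mt-Tk, a lysine tRNA (chrM:7700-7764, plus strand), of which mt-Tc had the largest fold change among the tested genes. mt-Tk was not tested in the reported fit and was chosen after its values were seen.
mt-Tl1: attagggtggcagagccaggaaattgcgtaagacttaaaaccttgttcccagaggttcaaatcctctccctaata
mt-Tp: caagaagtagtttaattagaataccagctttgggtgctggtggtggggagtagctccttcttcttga
mt-Tc: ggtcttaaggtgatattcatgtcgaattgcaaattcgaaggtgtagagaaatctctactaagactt
mt-Tk: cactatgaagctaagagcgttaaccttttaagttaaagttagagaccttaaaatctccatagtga

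mt-Tl1 measured 7.28, 5.77 and 6.83 CPM at 5 mM and 4.96, 9.17 and 6.51 CPM at 25 mM, a log2 fold change of 0.05 ± 0.29 (SE, FDR 0.920). mt-Tp averaged 1.17 CPM ± 0.21 and 1.40 CPM ± 0.39 (SD, n = 3 each), a log2 fold change of 0.26. mt-Tm, the methionine tRNA, had 1.08, 0.588 and 0.596 CPM at 5 mM and 0.626, 2.41 and 1.58 CPM at 25 mM, and its log2 fold change of 1.01 ± 0.51 (SE) had an FDR of 0.225. mt-Tw, for tryptophan, averaged 0.590 CPM ± 0.13 and 0.820 CPM ± 0.43, a log2 fold change of 0.46. In all 4 of these genes the SD was larger at 25 mM than at 5 mM.

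mt-Tc had the largest fold change of the tested mitochondrial genes. Its CPM was 0.145, 0.204 and 0.383 at 5 mM and 0.974, 1.01 and 0.181 at 25 mM. Replicate 3 at 25 mM lay below 2 of the 5 mM replicates, and the log2 fold change of 1.56 ± 0.67 (SE) had an FDR of 0.168. The 12 libraries together held 122 counts of it. Without library 25 mM 2a the log2 fold change was 1.01 (FDR 0.417).

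mt-Tk did not pass the filter on low counts, with 28.7 counts in all. Its CPM was 0.0181, 0.0226 and 0.0213 at 5 mM and 0.232, 0.301 and 0.0904 at 25 mM, so that the groups did not overlap. It entered the fit without a filter, with a log2 fold change of 3.15 and an FDR of 0.0620 in edgeR, where 5.63% of all genes were called. It passed the filter in the fits without 25 mM replicate 3 or any 1 of the 5 mM replicates, and only through its 25 mM values, so the calls in 2 of these fits are no test of it. Its fold depends on how the fit treats counts near 0.

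By strand, the plus-strand genes held nearly all mitochondrial counts. The minus-strand share was 0.141%, 0.0926% and 0.0800% in the 5 mM replicates and 0.0978%, 0.112% and 0.162% in the 25 mM replicates. It came almost wholly from mt-Nd6, the only coding gene of that strand and a subunit of complex I. mt-Nd6 measured 154, 53.7 and 60.4 CPM at 5 mM and 80.4, 139 and 122 CPM at 25 mM, a log2 fold change of 0.35 ± 0.41 (SE, FDR 0.579). Apart from 5 mM replicate 1, all 5 mM values lay below all 25 mM values. Without that replicate the log2 fold change was 1.00 ± 0.24 (SE) and mt-Nd6 was called by edgeR (FDR 0.0238), in a fit that called 26.6% of all genes.

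The library 5 mM 1a set the high value of that replicate. It had 220 CPM of mt-Nd6, and the other 5 libraries at 5 mM had 51.2 to 64.5 CPM. The log2 ratio of mt-Nd6 to the summed plus-strand coding genes was -9.84 ± 0.45 at 5 mM and -9.61 ± 0.46 at 25 mM (SD, n = 3 each), and the groups overlapped. In batch 1 it was lower at 25 mM by 0.13 and in batch 2 higher by 0.65. The tested minus-strand genes mt-Nd6, mt-Tc and mt-Tp had a median log2 fold change of 0.35, and the 12 plus-strand coding genes one of 0.27. Whether counting used the strand is not given in the sources used here, and without it reads in the stretch shared by mt-Nd5 and mt-Nd6 cannot be told apart.

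Of the 7 copies on chromosome 1, Gm29216 received the most counts. It held 50613 to 136162 counts per library, which is 11.6% to 28.2% of the mt-Co1 counts of the same library. Summed by replicate, it stood at 13.7%, 19.96% and 22.6% of mt-Co1 at 5 mM and at 14.8%, 14.7% and 18.7% at 25 mM. The means were 18.8% ± 4.59 and 16.1% ± 2.31 (SD, n = 3 each), and the groups overlapped. Its log2 fold change was 0.11 ± 0.24 (SE, FDR 0.784), beside 0.29 for mt-Co1.

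The other copies took fewer counts although they are closer matches. Gm10925, identical to mt-Atp6 over its 678 bases, had 71.1 to 13444 counts per library, at most 7.65% of those of mt-Atp6, with a median of 3205 and values above 0 in all 12 libraries, and a log2 fold change of 1.02 ± 0.88 (SE, FDR 0.461). Gm28437, Gm28661, Gm28439 and Gm10222 are identical to stretches of mt-Co3, mt-Co2, mt-Nd4 and mt-Nd4l and had at most 11.8 counts in any library, with 2 of these genes at 0 throughout. Gm28438 differs from mt-Nd3 by T3C, counted from the start of mt-Nd3, and had at most 37.9 counts. How many of these reads came from chromosome 1 was not tested. With both measured copies added to their originals, the mitochondrial share was 8.35% ± 2.04 at 5 mM and 10.2% ± 2.31 at 25 mM (SD, n = 3 each), and 0 of 21 mitochondrial genes were called, against 2% of all genes.

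**Figure D4:**
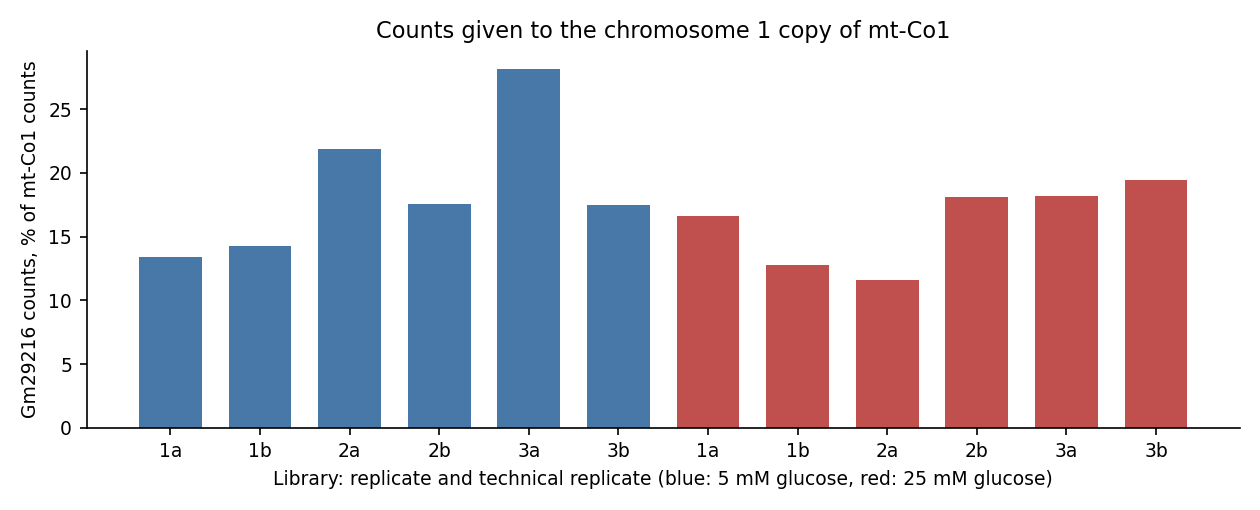
Counts of the chromosome 1 copy Gm29216 as a percent of the mt-Co1 counts of the same library (bars from 0), for the 6 libraries at 5 mM (blue) and the 6 at 25 mM glucose (red), with replicate number and technical replicate letter below. The bars run from 11.6% in 25 mM 2a to 28.2% in 5 mM 3a, and neither colour lies wholly above the other.

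The nuclear genes that encode the partner subunits leaned the other way. Of 35 nuclear complex I genes, 27 had log2 fold changes below 0 with a median of -0.18. For complex III it was 8 of 9 with a median of -0.33, for complex IV 12 of 13 with a median of -0.45, and for ATP synthase 15 of 16 with a median of -0.24. None of these 73 genes was called, where 0.513% of all genes tested were called lower at 25 mM. The median of all genes tested was -0.01. The replicates did not overlap, with lower values at 25 mM, in 6 of 35, 2 of 9, 3 of 13 and 1 of 16 of them, against 15.8% of all genes tested.

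The gene with the lowest FDR in each list shows the spread behind these medians. Cox6a2, the heart and muscle form of a complex IV subunit, had 0.379, 1.11 and 0.851 CPM at 5 mM and 0.185, 0.164 and 0.136 CPM at 25 mM (log2 fold change -2.24 ± 0.50 SE, FDR 0.0581). Atp5d of ATP synthase had 9.14, 41.5 and 30.7 CPM at 5 mM and 13.4, 7.01 and 14.4 CPM at 25 mM (-1.22 ± 0.52 SE, FDR 0.165). Here 5 mM replicate 1 lay among the 25 mM replicates. The same was so for Ndufs8 of complex I (10.1, 25.0 and 20.4 CPM against 9.62, 10.3 and 12.01 CPM, log2 fold change -0.80 ± 0.33 SE, FDR 0.161). For Uqcr11 of complex III, 5 mM replicate 1 lay below every 25 mM replicate (3.07, 15.6 and 13.0 CPM against 4.85, 3.42 and 4.57 CPM, -1.30 ± 0.53 SE, FDR 0.155).

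Summed over the list, the CPM of the nuclear subunits was lower at 25 mM without overlap for complexes I and IV and for ATP synthase, while the groups overlapped for complex III. How often sums of other genes part in this way was not computed. Of single genes tested, 15.8% did so in this direction. The ATP synthase genes summed to 2900.1, 2946 and 2879 CPM at 5 mM and to 2173, 2531 and 2493 CPM at 25 mM. Those of complex IV summed to 789, 937 and 927 CPM and to 622, 714 and 767 CPM. Atp5b, the ATP synthase gene with the highest CPM, overlapped by itself, with 810, 1054 and 978 CPM at 5 mM and 653, 685 and 816 CPM at 25 mM. The ratio of mitochondrial to nuclear CPM within a complex nevertheless overlapped between the groups in all 4. For complex IV it was 59.8, 27.8 and 35.9 at 5 mM and 59.8, 75.9 and 41.6 at 25 mM, since 5 mM replicate 1 again lay with the higher values. The mean log2 ratio was higher at 25 mM by 0.48 for complex I, 0.41 for complex III, 0.55 for complex IV and 0.43 for ATP synthase.

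**Figure D5:**
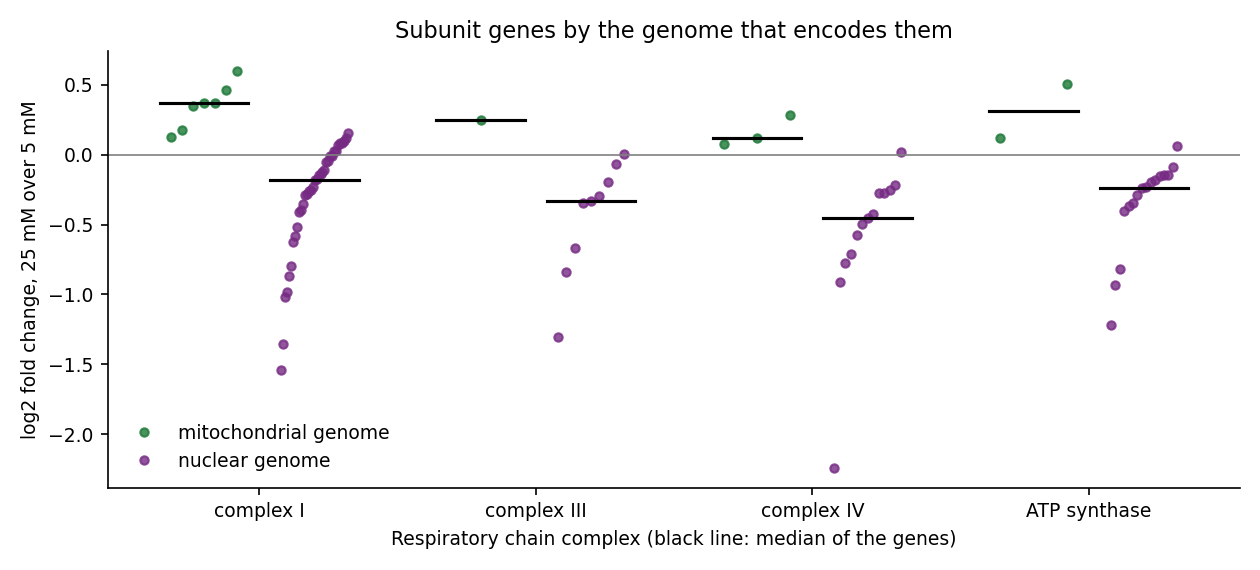
Log2 fold change of 25 mM over 5 mM glucose for each subunit gene of complexes I, III and IV and of ATP synthase, green where the mitochondrial and purple where the nuclear genome encodes it, with black lines at the medians. All 13 green points lie above 0, and 62 of the 73 purple points lie below it.

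The nuclear genes that keep, copy and read the mitochondrial genome had log2 fold changes of both signs in each list. Of 10 genes for replication and copy number, 5 had log2 fold changes above 0 and none was called, against 1.98% of all genes tested. Tfam, which packages mitochondrial DNA and starts its transcription, had 73.0, 33.6 and 43.8 CPM at 5 mM and 49.2, 57.4 and 52.3 CPM at 25 mM (log2 fold change 0.08 ± 0.28 SE, FDR 0.870). The polymerase gene Polg and the helicase gene Twnk stood at -0.26 and -0.07, and Polg2, the accessory subunit, at 0.54 (FDR 0.102). Polg2 had 17.6, 19.1 and 16.8 CPM at 5 mM and 24.5, 26.7 and 26.5 CPM at 25 mM, and these did not overlap, as was so with higher values at 25 mM for 16% of all genes tested.

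Of 9 transcription genes, 6 lay above 0 with a median of 0.32 and none was called, against 1.98% of all genes tested. Polrmt, the mitochondrial RNA polymerase, and its partner Tfb2m stood at -0.19 and -0.01, with 3.79, 6.61 and 6.30 CPM of Polrmt at 5 mM and 4.80, 3.78 and 6.08 CPM at 25 mM. Mterf1b had the lowest FDR there, 0.0831, at a log2 fold change of 0.90 ± 0.26 (SE). Among 8 genes of RNA stability and decay, Lrpprc, which stabilises mitochondrial mRNAs, was at -0.10 ± 0.14 (SE, FDR 0.668), and the exonuclease gene Rexo2 at -0.56 ± 0.17 (SE, FDR 0.0912).

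A single nuclear partner gene passed the test. Nsun4, an rRNA methyltransferase that also serves assembly of the mitochondrial ribosome, rose at 25 mM: it had 35.0, 28.7 and 32.1 CPM at 5 mM and 107, 80.1 and 62.1 CPM at 25 mM. The groups did not overlap, and the log2 fold change was 1.38 ± 0.22 (SE, FDR 0.0339 in edgeR). It was the 1 call among 29 tested genes of mitochondrial RNA processing and modification, whose median was -0.03, beside 1.47% of all genes called higher at 25 mM. Without any 1 of 4 replicates (5 mM 2 and 3, 25 mM 1 and 2), and without library 25 mM 2a, no gene at all was called, and the FDR of Nsun4 was then 0.119 to 0.159. In the transcript table its FDR was 0.0523. Among 11 genes of the transcriptional control of mitochondrial biogenesis, 8 lay above 0 with a median of 0.09. Ppara, a fatty acid receptor, had 1.12, 1.40 and 1.83 CPM at 5 mM and 4.47, 5.80 and 3.12 CPM at 25 mM (log2 fold change 1.62 ± 0.34 SE, FDR 0.0525) and was not called.

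Cell type markers moved with the glucose contrast and are given beside these values. All 8 rod markers had log2 fold changes above 0 with a median of 1.09, and 5 were called: Pde6a, Pde6b, Cnga1, Nrl and Nr2e3, where 1.47% of all genes were called higher. No gene was called in 4 of the 6 fits that left out a replicate, in batch 2 alone or without library 25 mM 2a. Their summed level was 2714 to 5166 CPM at 5 mM and 5893 to 8094 CPM at 25 mM. Of 6 vascular markers, 5 lay below 0 with a median of -2.06, and none was called, where 0.513% of all genes were called lower. Their sum was 912 to 1587 CPM at 5 mM and 505 to 841 CPM at 25 mM. The 5 microglial markers lay below 0 with a median of -1.19 and a sum of 55.6 to 113 CPM against 31.6 to 62.4 CPM. None of them was called, against the same 0.513% of all genes. Retinal pigment epithelium markers summed to 1.97 to 3.87 CPM and erythrocyte markers to 0.0542 to 1.11 CPM over all replicates. In cones (6 markers, median 0.48, with Opn1mw called), Mueller glia (5, -0.06), bipolar cells (5, -0.04), amacrine cells (4, 0.04) and ganglion cells (4, -0.02) both signs occurred. Summed, the cone markers were higher and the bipolar and amacrine markers lower at 25 mM without overlap. The part of cell make-up in the mitochondrial values was not tested.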

How the data were processed

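RNA of retinal explants was measured in 12 libraries from a strand-preserving kit suited to low amounts of total RNA. The authors deposited estimated counts (expected counts) per gene and per transcript, not normalized between libraries. GRCm38 is named in the submitters' processing notes. The aligner, counter, annotation and use of strand are not given in the sources used here. For genes with 1 transcript the deposited gene values equal the transcript values times a factor set by length and library, largest for tRNA genes. Libraries from this kit are depleted of ribosomal cDNA and poor in RNAs of tRNA size, so rRNA and tRNA values describe what remained. The paper does not describe the depletion, and how far it reached mitochondrial rRNA was not measured.

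Technical replicates were summed and rounded. Genes were filtered with filterByExpr, scaled by TMM and tested with edgeR 4.0.16 (quasi-likelihood, R 4.3.3, limma 3.58.1, DESeq2 1.42.0 as alternatives), with adjustment over all genes tested. SE is the log2 fold change over the root of F. Symbols, positions and sequences came from GENCODE M21, which named 48714 of 53707 genes (90.7%). Simulated counts for the 21061 genes recovered 16% of 2-fold, 82% of 4-fold and 96% of 8-fold changes of 50 genes each. Library totals of 14815285 to 36692484 counts make counting error small except for tRNAs and other genes of low CPM, such as Cox6a2.

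The members and gene lists were chosen with earlier results of these data known. Named are all coding and rRNA genes, the 5 tRNA genes with the highest mean CPM, Polrmt, Tfam, Tfb2m, Twnk, Polg and Lrpprc, the lowest-FDR gene of each partner list, and the measured nuclear copies. Alternatives covered scaling, tool, filter, batch, single libraries, single replicates, the replicate block, the transcript table and pooled nuclear copies, the last chosen after the data were seen.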

Additional observations from a re-analysis of the deposited data

Results flagged for a closer look

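Among 62 groups of 6 libraries (10 measures and the CPM of 21 genes at each glucose concentration), 14 held 1 library whose gap to its nearest neighbour was too large a part of the whole range by Dixon's 95% critical value. Chance flags about 1 in 20 groups, here 3.1, and both the measures and the technical pairs depend on each other.

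The library 25 mM 2a held 15.4% mitochondrial counts, where the rest of the 25 mM libraries had 7.94% to 10.2%. Single genes followed: mt-Co1 with 45614 CPM against 16462 to 25179, mt-Nd4 with 15971 CPM against 5524 to 9245, mt-Nd5 with 13643 CPM against 4089 to 7645, mt-Nd2 with 10134 CPM against 3323 to 5702, and mt-Nd4l with 2709 CPM against 547 to 1321.

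In the library 5 mM 1a, 4 different genes stood apart. mt-Nd6 had 220 CPM while the rest of the 5 mM libraries had 51.2 to 64.5, mt-Atp8 had 865 CPM against 235 to 383, mt-Rnr1 had 6392 CPM against 1068 to 2623, and mt-Rnr2 had 8734 CPM against 2435 to 4027.

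The library 25 mM 3b had the highest rRNA share of the mitochondrial counts, 17.4% against 3.62% to 7.79% in the rest of the 25 mM libraries, or 21.1 rRNA counts per 100 coding counts against 3.76 to 8.45. Its minus-strand share was 0.220% against 0.0802% to 0.115%, and its log2 ratio of mt-Nd6 to the plus-strand coding genes -8.56 against -10.3 to -9.75.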

How the results depend on the processing

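The count of called mitochondrial genes was 0 in the reported fit and in every alternative except the leave-one-out fits. There it ran from 0 to 2 with mt-Tk counted. The count of called genes among all tested, 417 as reported, was 0 when scaled to the mitochondrial sum (median log2 fold change of all genes -0.25), in batch 2 alone and without library 25 mM 2a. It was 3489 with DESeq2, 1979 without a filter, 2918 with 12 libraries and a batch term, 3279 in batch 1 alone, 1731 without library 5 mM 1b, 187 from the transcript table, and 0 to 5845 when single replicates were left out (highest without 5 mM replicate 1). Called nuclear partner genes, 1 as reported, numbered 0 when scaled to the mitochondrial sum, in batch 2 alone, without library 25 mM 2a and from the transcript table. They numbered 10 with DESeq2, 9 with the batch term, 6 in batch 1 alone, 5 without library 5 mM 1b, 4 without a filter, 2 with the newer edgeR method and with the CPM filter, and 0 to 33 when single replicates were left out. The labels do not say whether the replicate numbers pair the samples. Correlations of same-numbered deviations were -0.01, -0.45 and 0.28, and with 3 replicates they cannot decide it. With the replicate block 990 genes, 3 partner genes and 0 mitochondrial genes were called.

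Differences in share (25 mM minus 5 mM, percentage points) moved by more than the SD of replicates within batches. For complex IV the difference was 2.21 in batch 1 and -3.64 in batch 2 (reported -0.55), for tRNA 0.0074 and -0.0065, and in batch 2 it was 0.35 for ATP synthase and 0.055 for the minus strand. Per kilobase it was 4.58 for the mitochondrial share and 0.026 for tRNA. Both shares are themselves larger per kilobase than in counts, so these differences are not on the scale of the reported ones. The groups overlapped for the mitochondrial share per kilobase too, as 5 mM replicate 1 lay above 25 mM replicate 3.

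Several small log2 fold changes changed sign, none with a call. Scaled to the mitochondrial sum, mt-Tl1 was -0.22, mt-Nd1 -0.076, mt-Co2 -0.13, mt-Atp6 -0.11, mt-Co3 -0.16 and mt-Nd3 -0.10. In batch 2, mt-Rnr1 was 0.82, mt-Rnr2 0.63, mt-Tl1 -0.48 and mt-Tw -0.25, and in batch 1 mt-Co2 was -0.045 and mt-Nd6 -0.039. Without library 5 mM 1b, mt-Tv was -0.020, mt-Tl1 -0.17, mt-Co2 -0.051, mt-Atp6 -0.050, mt-Nd3 -0.054 and mt-Co3 -0.12. Without library 25 mM 2a, mt-Tl1 was -0.22. mt-Rnr2 was 0.037 with library totals, 0.016 with the CPM filter and 0.048 with the batch term. With single replicates left out, mt-Rnr1 ran from -0.79 to 0.21, mt-Rnr2 from -0.24 to 0.31, mt-Tv from -0.15 to 0.62, mt-Tl1 from -0.20 to 0.25, mt-Nd1 from -0.13 to 0.38, mt-Co2 from -0.15 to 0.27, mt-Atp6 from -0.13 to 0.35, mt-Co3 from -0.17 to 0.28, mt-Nd3 from -0.13 to 0.37 and mt-Cytb from -0.060 to 0.50. The cause of these changes was not tested. Depth limits the tRNA genes, and the spread between 3 replicates limits the rest.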
